A study of Rattus norvegicus with 12 samples.

Results

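The 7 genes *Men1*, *Cdkn1b*, *Cdkn2c*, *Prkar1a*, *Gnas*, *Pttg1* and *Rb1*, which are mutated, lost or overexpressed in inherited or sporadic pituitary tumors of humans or rodents, were read in the anterior pituitary gland of male rats treated with the synthetic estrogen diethylstilbestrol (DES). The probe sets read were all those whose gene symbol in the platform annotation is exactly 1 of these names, which gave 14 of the 31099 probe sets on the array. *Prkar1a* and *Gnas* had 3 probe sets each, *Men1*, *Cdkn1b* and *Cdkn2c* had 2 each, and *Pttg1* and *Rb1* had 1 each. The rats belonged to 4 congenic lines in which alleles of the COP strain replace those of the ACI strain at an *Ept* (estrogen-induced pituitary tumor) locus, which lies on chromosome 6 for Ept1, on chromosome 10 for Ept9, and on chromosome 3 for both Ept2 and Ept6. Every rat of every line carried ACI alleles elsewhere, received a DES implant of 5 mg at 9 weeks of age, and was killed 12 weeks later, at 21 weeks, with BrdU (50 mg/kg) injected 4 h before. Each line had 3 arrays. No sham-treated rat and no ACI array was among the samples analysed here, so the comparison for a line was with the average of the other 3, and no value below measures an effect of DES. The sample notes and the design text conflict on whether the 3 arrays of a line are 3 independent replicates, so p-values may measure spread that is in part technical.

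These genes act at a few points of the controls on growth. *Cdkn1b* (p27) and *Cdkn2c* (p18) encode inhibitors of the cyclin-dependent kinases that phosphorylate the retinoblastoma protein, the product of *Rb1*, and loss of any of these 3 genes gives pituitary tumors in mice or rats. *Men1* encodes menin, a partner of histone methyltransferases that keep *Cdkn1b* and *Cdkn2c* expressed in mouse pancreatic islets. *Gnas* encodes the alpha subunit of the stimulatory G protein, which activates adenylyl cyclase, and *Prkar1a* encodes a regulatory subunit that holds protein kinase A inactive until cyclic AMP binds. Activating *Gnas* mutations are found in human growth hormone-secreting adenomas, and *PRKAR1A* is lost in Carney complex. *Pttg1* (pituitary tumor transforming gene) encodes securin, the inhibitor of separase, and is induced by estrogen in the rat pituitary.

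All 14 probe sets were bright enough to be tested, and none passed the test of a difference between the lines. The lowest adjusted p-values of the F test were those of *Gnas*, where 2 of 3 probe sets were highest in Ept6 and did not pass the test (limma, adjusted p = 0.186 and 0.161 for Ept6 against the other 3), while the brightest of the 3 did not have its highest mean there. The signals of 7 of the 14 probe sets differed so little that all 4 of their 95% intervals for a line against the other 3 lay within 1.25-fold.

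The *Gnas* locus makes several transcripts from alternative first exons, and the promoter windows of its 3 start sites in the RefSeq table (GRCr8, each 250 bases before to 50 after a start, plus strand) are shown. They are shown because 1 of its 3 probe sets did not have its highest mean in Ept6, as the others did. No adjusted test told the line patterns of these probe sets apart. The window of *Prkar1a*, the other gene with 3 probe sets, is shown beside those of *Gnas*. Capitals mark matches, on either strand, to any of the motifs searched, which were the estrogen response element GGTCANNNTGACC, the single arm AGGTCA of that element, the cyclic AMP response element TGACGTCA, the GC box GGGCGG, the CCAAT box and the cell cycle homology region TTTGAA. Which start each probe set reads was not worked out here.
Gnas chr3:183489398-183489697: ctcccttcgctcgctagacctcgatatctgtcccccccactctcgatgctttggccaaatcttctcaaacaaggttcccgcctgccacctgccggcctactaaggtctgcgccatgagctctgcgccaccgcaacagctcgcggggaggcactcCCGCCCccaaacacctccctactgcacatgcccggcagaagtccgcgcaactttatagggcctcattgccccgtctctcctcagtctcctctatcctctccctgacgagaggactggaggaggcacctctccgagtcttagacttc
Gnas chr3:183502993-183503292: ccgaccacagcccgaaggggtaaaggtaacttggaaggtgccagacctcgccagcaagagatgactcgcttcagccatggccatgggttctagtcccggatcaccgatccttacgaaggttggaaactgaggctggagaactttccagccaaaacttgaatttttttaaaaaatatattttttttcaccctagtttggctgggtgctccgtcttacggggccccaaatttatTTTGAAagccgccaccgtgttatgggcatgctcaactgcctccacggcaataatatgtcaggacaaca
Gnas chr3:183537089-183537388: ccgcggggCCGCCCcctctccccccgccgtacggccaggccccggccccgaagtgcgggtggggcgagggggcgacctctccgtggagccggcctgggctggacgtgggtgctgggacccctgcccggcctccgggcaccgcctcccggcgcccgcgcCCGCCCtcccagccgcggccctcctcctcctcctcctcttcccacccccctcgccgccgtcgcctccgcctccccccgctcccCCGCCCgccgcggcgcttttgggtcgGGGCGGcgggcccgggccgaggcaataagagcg
Prkar1a chr10:95120287-95120586: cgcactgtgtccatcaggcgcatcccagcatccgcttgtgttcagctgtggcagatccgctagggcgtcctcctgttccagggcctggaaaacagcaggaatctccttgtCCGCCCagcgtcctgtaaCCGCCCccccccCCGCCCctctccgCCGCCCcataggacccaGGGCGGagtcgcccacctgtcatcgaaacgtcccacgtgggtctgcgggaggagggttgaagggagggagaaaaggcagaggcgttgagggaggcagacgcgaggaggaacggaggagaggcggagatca
The first *Gnas* window holds 1 GC box, the second holds 1 TTTGAA and no GC box, and the third holds 4 GC boxes. The *Prkar1a* window holds 5 GC boxes. A GC box stands in 33.1% of 33469 RefSeq promoter windows of this length, and TTTGAA in 18.3%. The G and C content of the *Gnas* windows is 60.7%, 49.0% and 82.0% in this order, against a median of 51.7% over all windows. The windows of *Men1*, *Cdkn1b*, *Cdkn2c* and *Pttg1* hold 1 GC box each and that of *Rb1* holds 6. CCAAT, found in 37.5% of all windows, occurs 3 times in the *Pttg1* window, 2 times in that of *Cdkn1b* and 1 time in that of *Men1*. Besides the second *Gnas* window, TTTGAA occurs only in that of *Pttg1*, 1 time. No window of these genes holds the full estrogen response element (0.0269% of all windows), its single arm (16.2%) or the cyclic AMP response element (1.83%), which says only that these letters are not in these windows.

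The glands were rich in the hormone transcripts of the anterior lobe. The brightest probe sets of *Prl*, *Gh1* and *Cga* (prolactin, growth hormone and the common alpha subunit of the glycoprotein hormones) averaged 44688, 33720 and 32877 signal units over the 12 arrays. The posterior lobe markers *Avp*, *Oxt* and *Gfap* were left out as dim, while *Mbp*, the myelin gene of the same list, averaged 815. Also dim was *Pomc*, the defining transcript of corticotrophs, at a mean of 63.1. Signals are on a linear scale that the authors set to 1 trimmed mean on every array, and correlations between arrays ran from 0.966 to 0.983. Levels of different probe sets are not compared below as amounts of RNA, since probe sets differ in how strongly they bind. In whole glands, fewer cells of a type and less RNA per cell cannot be told apart.

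The plot of signals by line shows the members on scales that start at 0.

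**Figure D1:**
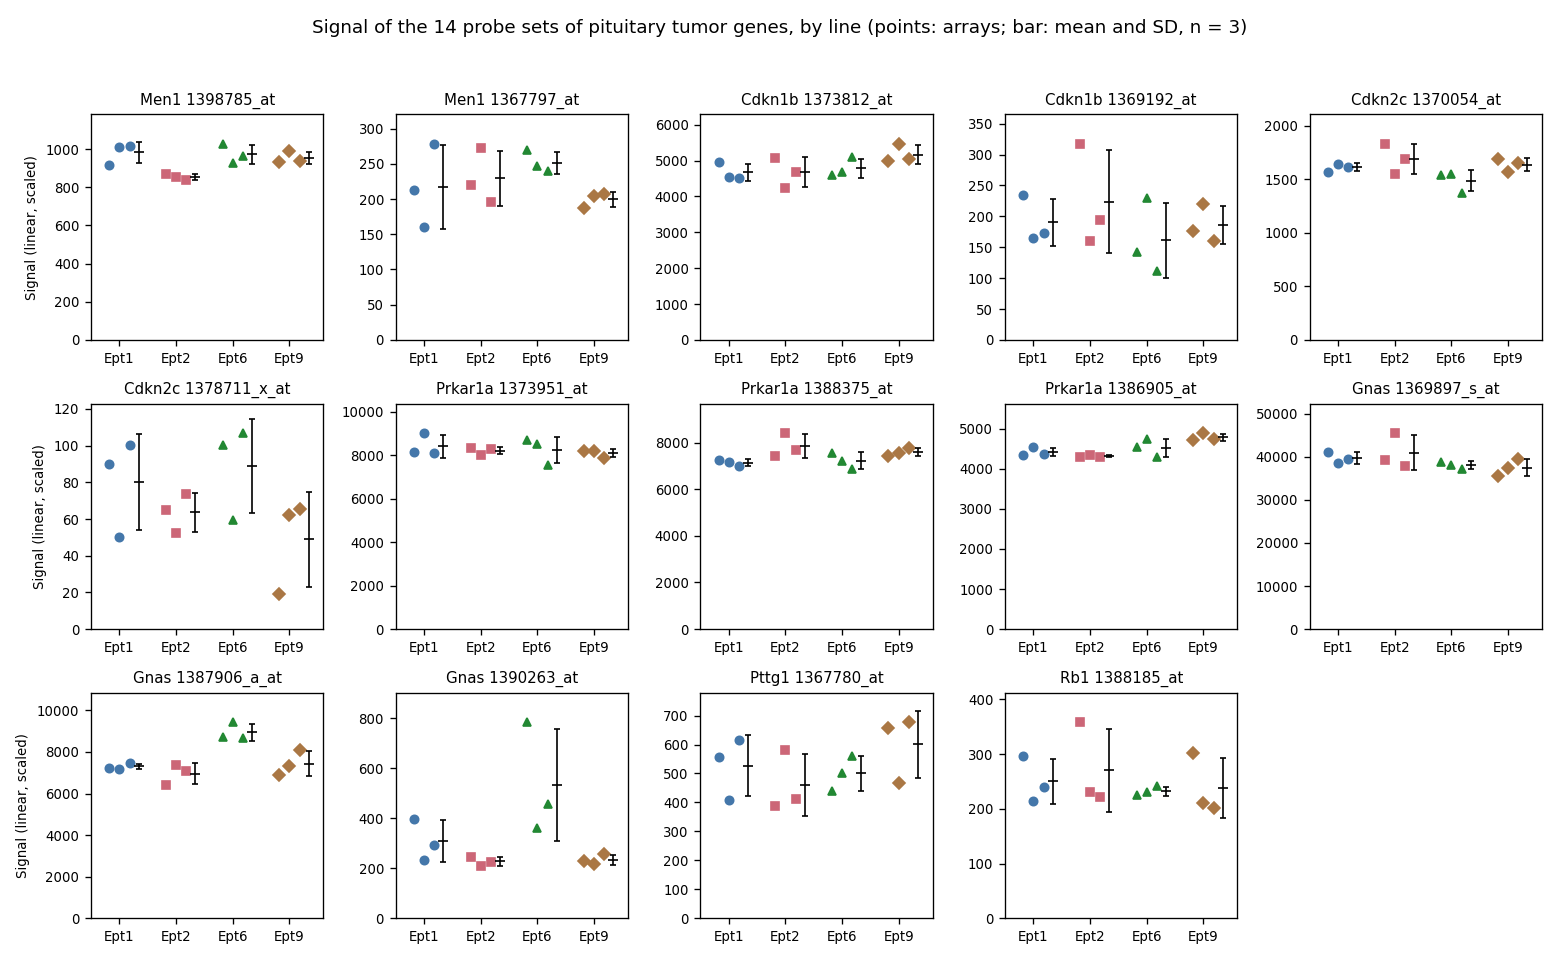
Signal (linear, scaled) of the 14 probe sets in Ept1, Ept2, Ept6 and Ept9, with 1 point per array and a bar for the mean and SD (n = 3). The 3 Ept6 arrays lie above the other 9 for *Gnas* 1387906_a_at, and the points of most other panels overlap between lines.

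*Gnas* was read by one of the brightest probe sets of the array. Its probe set 1369897_s_at ranked 10 of 31042 by mean signal and lay between percentiles 99.95 and 99.99 on every array. The suffix of this probe set marks probes shared by several transcripts. Its signals were 38899, 38202 and 37164 in Ept6, 41166.5, 38553 and 39414.5 in Ept1, 39312, 45511 and 37955 in Ept2, and 35476, 37321 and 39404.5 in Ept9. All lines overlapped, and the widest deviation was that of the second Ept2 array. The log2 difference of Ept6 from the other lines was -0.04 (SE 0.07, 95% interval -0.20 to 0.12), and the F test among the lines gave an adjusted p of 0.767 (limma).

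The next probe set of *Gnas*, 1387906_a_at, has a suffix that marks probes for more than 1 transcript of the gene. It gave 8711, 9428 and 8685.5 in Ept6, against 7236, 7202 and 7464 in Ept1, 6415, 7371 and 7102 in Ept2, and 6880.1, 7333 and 8081 in Ept9. All 3 Ept6 arrays (8685.5 to 9428) lay above all 9 others (6415 to 8081). The mean was 8942 ± 422 (SD, n = 3) in Ept6 and 7232 over the 9 other arrays, a log2 difference of 0.31 (SE 0.07), or 1.24-fold with a 95% interval of 1.11 to 1.38. With limma, the adjusted p over all 18607 probe sets was 0.186, and the F test among the lines gave an adjusted p of 0.207. Of all tested probe sets, 0.860% had all 3 Ept6 arrays above the other 9.

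The remaining probe set, 1390263_at, was much dimmer and gave 785, 359.8 and 457 in Ept6, against 399.5, 232 and 294.5 in Ept1, 247, 209 and 227 in Ept2, and 231, 218 and 256 in Ept9. The 3 Ept6 arrays overlapped the others through 1 Ept1 array at 399.5. The log2 difference of Ept6 from the other lines was 0.96 (SE 0.21), or 1.95-fold with a 95% interval of 1.42 to 2.67 (limma, adjusted p = 0.161), and the F test gave an adjusted p of 0.147. The first Ept6 array was the highest of the 12, and without it the difference was 0.65 (limma adjusted p = 0.461). The calls on both probe sets turned on how the spread is modelled. With a spread that depends on the level (limma with trend), Ept6 passed the test for 1387906_a_at (adjusted p = 0.0175) and for 1390263_at (adjusted p = 0.0239).

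Ept2 was the line lowest for both of these probe sets. The log2 difference of Ept2 from Ept6 was -0.36 (SE 0.09) for 1387906_a_at and -1.10 (SE 0.25) for 1390263_at, with adjusted p-values of 0.0978 and 0.0837 (limma). The first passed the test after quantile normalization (adjusted p = 0.0488), and both passed it with only the brighter probe sets tested (the filter at the 60th percentile), with adjusted p-values of 0.0478 and 0.0363. A sign of RNA quality differed between the same 2 lines, in the opposite order. The 3' minus 5' difference of the *Gapdh* control probe sets was lowest in Ept6 at 0.14 ± 0.06 and highest in Ept2 at 0.38 ± 0.06, with 0.25 ± 0.01 in Ept1 and 0.21 ± 0.06 in Ept9 (log2, SD, n = 3 each). The same difference for actin was also lowest in Ept6 (1.59 ± 0.12) and highest in Ept2 (1.81 ± 0.05). For hexokinase it was highest in Ept2 (1.29 ± 0.24) and lowest in Ept9 (0.93 ± 0.03), with 0.94 ± 0.09 in Ept6. The part of these in the *Gnas* difference was not tested, nor was their part in the differences of other genes in Ept2 or Ept6 given below.

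The other member of the cyclic AMP branch, *Prkar1a*, varied little. Its probe sets 1373951_at, 1388375_at and 1386905_at had coefficients of variation of 4.64%, 5.50% and 4.80% over the 12 arrays. The last of them gave 4728, 4895 and 4748.5 in Ept9, against 4339, 4537 and 4374 in Ept1, 4303, 4349 and 4300.3 in Ept2, and 4545, 4736 and 4287.5 in Ept6. Ept9 had the highest mean, and its lowest array (4728) was under 1 Ept6 array (4736). The log2 difference of 0.12 (SE 0.06) did not pass the test (limma, adjusted p = 0.497). Signals of 1373951_at lay between 7529 and 9020.2 and 1388375_at between 6854 and 8409, with lines overlapping in both.

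The kinase inhibitor genes gave no line that passed the test. The bright probe set of *Cdkn1b*, 1373812_at, gave 4996, 5466.5 and 5040.5 in Ept9, against 4951, 4540.3 and 4527 in Ept1, 5080.5, 4242 and 4685 in Ept2, and 4590, 4670.3 and 5093 in Ept6. Ept9 was highest on average and overlapped the others, with a log2 difference of 0.13 (SE 0.07, 95% interval -0.03 to 0.30, limma adjusted p = 0.546). The dim *Cdkn1b* probe set 1369192_at ran from 112 to 317 and had its highest mean in Ept2 and its lowest in Ept6.

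For *Cdkn2c*, 1370054_at gave 1540, 1549 and 1373.5 in Ept6, against 1573, 1647 and 1620.5 in Ept1, 1833, 1552 and 1694 in Ept2, and 1691, 1571 and 1651 in Ept9. All 3 Ept6 arrays lay below the other 9, the highest of them at 1549 and the lowest of the others at 1552, as did those of 1.07% of all tested probe sets. The log2 difference was -0.15 (SE 0.07, 95% interval -0.30 to 0.01, limma adjusted p = 0.499). The second *Cdkn2c* probe set, 1378711_x_at, was among the dimmest that were tested (19.1 to 107) and had its highest mean in Ept6, at 89.0 ± 25.6 (SD, n = 3). Its widest difference was that of Ept9, at -0.59 (log2, SE 0.27, limma adjusted p = 0.461), and at -0.19 without the first Ept9 array. Its suffix marks probes that may also bind other transcripts.

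*Rb1* was read by the single probe set 1388185_at, which gave 358, 230.5 and 222.5 in Ept2, against 296, 215 and 239.8 in Ept1, 225, 230.2 and 241 in Ept6, and 302, 211 and 202 in Ept9. The lines overlapped, and the higher mean of Ept2 rested on its first array, the highest of the 12. The log2 difference of Ept2 was 0.14 (SE 0.16, limma adjusted p = 0.744), and -0.07 without that array.

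*Men1* had its lowest signals in Ept2 in its bright probe set. 1398785_at gave 871, 853 and 837 in Ept2, against 917, 1011 and 1018 in Ept1, 1027, 927.5 and 964 in Ept6, and 932, 992 and 936 in Ept9. All 3 Ept2 arrays lay below the other 9, as did those of 1.68% of all tested probe sets. The log2 difference was -0.18 (SE 0.06), or 0.883-fold with a 95% interval of 0.801 to 0.974, and did not pass the test (limma, adjusted p = 0.232). The dimmer probe set 1367797_at did not show it, with 220.5, 272 and 195 in Ept2 inside the range of the other lines (160.1 to 278).

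*Pttg1*, the securin gene, was read by 1367780_at at 658, 467 and 677 in Ept9, 556, 409.9 and 615 in Ept1, 438, 503 and 561 in Ept6, and 387, 581 and 412.5 in Ept2. Ept9 had the highest mean and Ept2 the lowest, with ranges that overlapped throughout. The log2 difference of Ept9 from the other lines was 0.27 (SE 0.17, 95% interval -0.10 to 0.63, limma adjusted p = 0.592), and that of Ept2 from Ept9 was -0.38 (SE 0.20, adjusted p = 0.501).

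Over the whole set, 0 of the 14 probe sets passed limma's F test among the 4 lines, where 0.994% of all 18607 tested probe sets passed. At an unadjusted p under 0.05 there were 2, both of *Gnas*, and the background share was 14.1%. Against the other 3 lines, 0 probe sets passed in Ept1 (background 0.193%), Ept2 (0.801%), Ept6 (0.161%) or Ept9 (0.683%), and 0, 3, 2 and 0 of the 14 had an unadjusted p under 0.05 in that order, beside 7.49%, 14.4%, 10.7% and 11% of all tested probe sets. In the 6 pairs of lines 0 passed, with backgrounds of 0.102% (Ept1 against Ept2), 0.215% (Ept1 against Ept6), 0.500% (Ept1 against Ept9), 0.656% (Ept2 against Ept6), 0.855% (Ept2 against Ept9) and 0.124% (Ept6 against Ept9). At an unadjusted p under 0.05 there were 1, 2, 0, 3, 0 and 3 of the 14 in the same order of pairs, beside 10.4%, 6.48%, 10.2%, 15.5%, 12% and 10% of all. No neighbours in the order of line means of any probe set were therefore told apart by these tests. Beyond *Men1* in Ept2 and *Gnas* and *Cdkn2c* in Ept6 (1 probe set each), 0 of the 14 probe sets had a line wholly above or below the rest, with backgrounds of 0.607% and 0.537% in Ept1 (above and below), 1.92% in Ept2 (above), and 1.30% and 1.40% in Ept9 (above and below). The 95% intervals of all 4 lines against the rest lay within 1.25-fold for 7 probe sets, within 1.5-fold for 10 and within 2-fold for 12. The 2 left outside were *Cdkn2c* 1378711_x_at and *Gnas* 1390263_at.

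**Figure D2:**
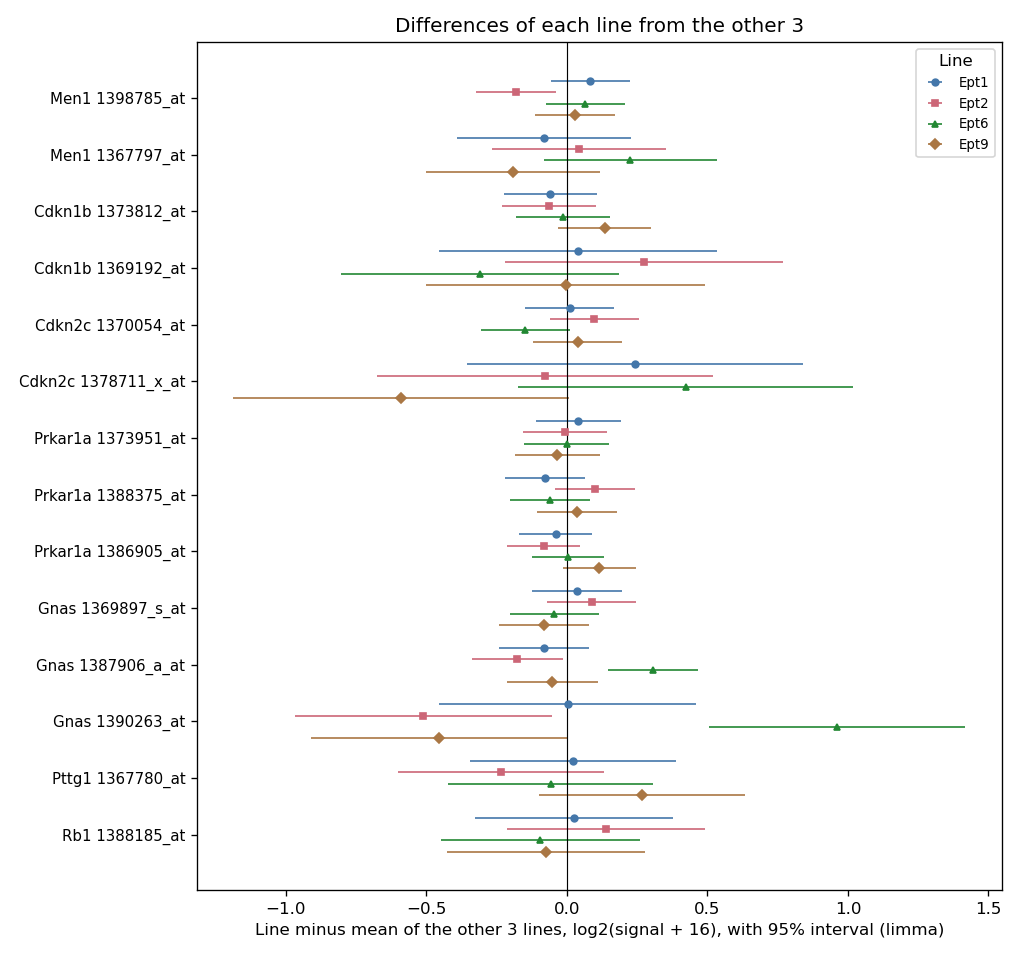
Difference of each line from the mean of the other 3, in log2(signal + 16), with its 95% interval from limma, for the 14 probe sets. The intervals of *Gnas* 1387906_a_at and 1390263_at in Ept6 lie above 0, those of both in Ept2 and of *Men1* 1398785_at in Ept2 lie below 0, and 0 of the 14 passed the adjusted test in any line.

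The probe sets of 1 gene were weakly correlated over the 12 arrays in most pairs. The 9 pairs that the 5 genes with several probe sets allow had Pearson correlations from -0.44 to 0.65 with a median of 0.05, beside a median of 0.18 over all 5139 same-gene pairs of tested probe sets. The closest pair was *Gnas* 1387906_a_at and 1390263_at (r = 0.65, permutation p = 0.0206, adjusted over the 5139 pairs 0.245, Spearman rho = 0.57, permutation p = 0.0564, adjusted 0.429). Without the 2 arrays farthest from the median, both of Ept6, r was 0.55. Inside the lines it was -0.24 (correlation of deviations from line means). Over the 9 pairs this correlation inside lines ran from -0.29 to 0.78 and was positive in 7, with 0.78 for *Prkar1a* 1373951_at and 1386905_at and 0.59 for *Gnas* 1369897_s_at and 1387906_a_at. None of the 9 passed the adjusted test, and 1.19% of all pairs passed with a positive correlation. The *Gnas* correlations moved with the scaling. After quantile normalization, r was 0.60 between 1369897_s_at and 1387906_a_at and 0.74 between 1369897_s_at and 1390263_at, against -0.08 for both before it.

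Whether 2 probe sets of a gene follow different line patterns was tested on the difference between their log2 signals, by an exact permutation test over the 15400 partitions of the arrays. The smallest p-values were those of the bright *Gnas* probe set 1369897_s_at against 1387906_a_at (exact p = 0.000779, adjusted over all 5139 pairs 0.160) and against 1390263_at (exact p = 0.00792, adjusted 0.320). They were followed by those of *Prkar1a* 1386905_at against 1373951_at (exact p = 0.0101, adjusted 0.323) and against 1388375_at (exact p = 0.0144, adjusted 0.354). Both *Gnas* pairs hold 1369897_s_at and both *Prkar1a* pairs hold 1386905_at, so these 4 pairs are not independent. The 4, of 9 pairs, had an unadjusted p under 0.05, as did 9.87% of all pairs. The adjusted test was passed by 0 of the 5139 pairs. The smallest p this test can give is 6.49e-05, so that at least 7 pairs would have to reach it for any to pass, and the count of 0 says little. limma's F test on the same differences called 26 of all pairs (0.506%) and 0 of the 9, with an unadjusted p of 0.0130 and 0.00278 for the same 2 *Gnas* pairs and of 0.398 and 0.314 for the same 2 *Prkar1a* pairs.

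**Figure D3:**
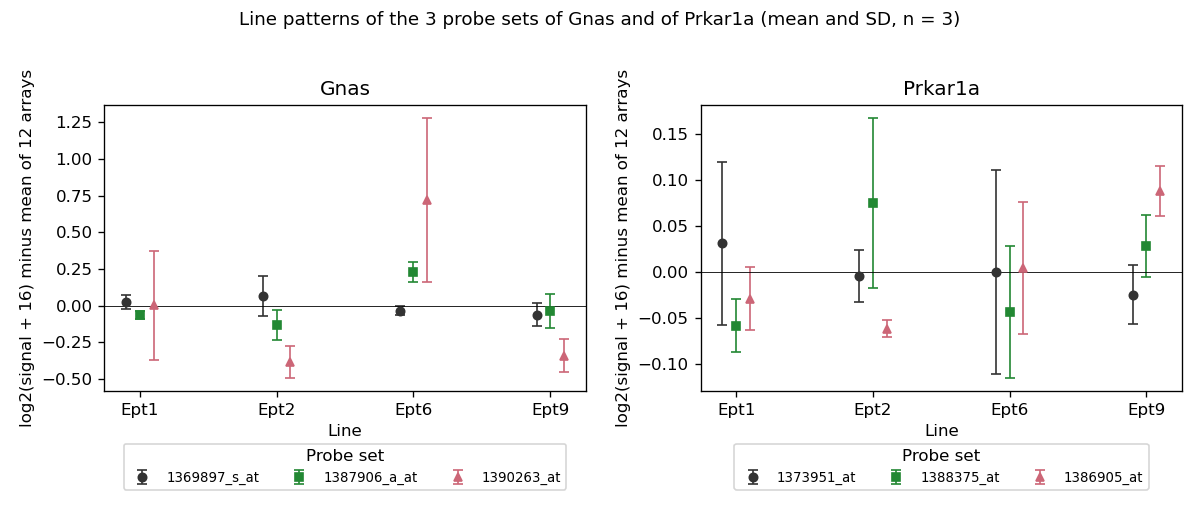
Mean and SD (n = 3) of log2(signal + 16) in each line, less the mean of the 12 arrays, for the 3 probe sets of *Gnas* (left) and of *Prkar1a* (right). *Gnas* 1387906_a_at and 1390263_at are highest in Ept6 and 1369897_s_at is not, and the *Prkar1a* scale spans a far smaller range.

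The members were placed by their order among tested genes on each chromosome, from the GRCr8 annotation. *Men1* (chromosome 1), *Cdkn1b* (4), *Cdkn2c* (5) and *Rb1* (15) lie on chromosomes that carry no COP segment in any of these lines. *Gnas* lies on chromosome 3, where it is number 755 of 798 tested genes. Of these, Ept2 had 33 called genes between numbers 37 and 767, so that *Gnas* is inside their span. That span takes in most tested genes of chromosome 3, and only *Lama5* (number 767) was called beyond *Gnas*. The nearest called gene, 8 genes away, is *Rae1*, whose probe set 1395465_at was lower in Ept2 (log2 difference -0.37, limma adjusted p = 0.0421). The other probe set of *Rae1*, 1392464_at, was not (0.05, adjusted p = 0.790). Ept6 had 3 called genes on the same chromosome, *Sardh*, *Tor1b* and *Fubp3*, at numbers 66 to 120, and *Gnas* is 635 genes from the last of them. *Prkar1a* is number 773 of 895 tested genes on chromosome 10, inside the span of the 33 called genes of Ept9 (320 to 892) and 2 genes from *Wipi1*, whose probe sets were higher in Ept9 by 0.57 and 0.66 (log2, limma adjusted p = 0.0446 and 0.0423). With single arrays left out, the call on *Rae1* was lost in 12 of 12 cases (limma, adjusted p = 0.0501 to 0.148) and those on *Wipi1* in 11 and 10 of 12 (0.0498 to 0.202 and 0.0241 to 0.202). *Pttg1*, number 168, lies outside that span, 152 genes from *Sco1*. Where the COP segments begin and end was not worked out here.

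**Figure D4:**
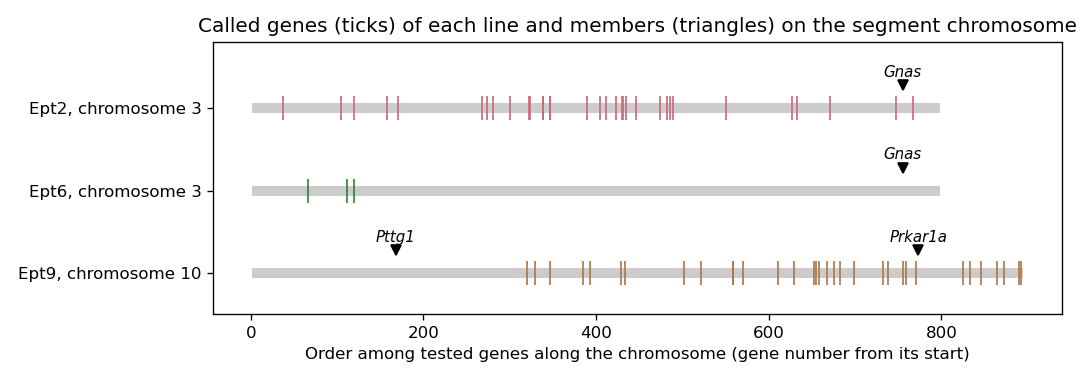
Order of tested genes along chromosome 3 (Ept2 and Ept6) and chromosome 10 (Ept9), with a tick for each gene called in that line and a triangle for *Gnas*, *Prkar1a* and *Pttg1*. *Gnas* (number 755) and *Prkar1a* (773) stand inside the spans of called genes of Ept2 and Ept9, which take in most of each chromosome. The 3 called genes of Ept6 stand at numbers 66 to 120.

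The wider pathways of these genes were read from 5 lists, with the brightest probe set of each gene. Of the CDK, cyclin and RB axis, 1 of 21 tested genes passed the F test, beside 0.994% of all tested probe sets. For a line against the other 3 the background was 0.161% in Ept6 and 0.801% in Ept2. The gene was *Ccnd2*, which encodes cyclin D2, a partner of the kinases that p18 inhibits. It was higher in Ept6, with a lowest and highest signal of 7999.5 and 8996 and a log2 difference of 0.48 (limma adjusted p = 0.0464), and lower in Ept2 (4899.6 to 5661, -0.42, adjusted p = 0.0385). In Ept1 it lay between 5415 and 6269 and in Ept9 between 6834 and 7259. The list's median log2 difference was -0.04 in Ept6 and -0.04 in Ept2, beside 0.01 and 0.01 over all tested probe sets. Leaving out single arrays ended the call on *Ccnd2* in 11 of 12 cases in Ept6 (adjusted p = 0.0455 to 0.217) and in 11 of 12 in Ept2 (0.0479 to 0.128), with no change of direction.

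Of 23 genes of securin, separase and chromatid separation, 0 passed the F test and *Bub1*, a spindle checkpoint kinase, was lower in Ept2 (98.7 to 115, log2 difference -0.75, limma adjusted p = 0.0441). The signal of *Bub1* was 185 to 243 in Ept1, 165 to 183 in Ept6 and 139.6 to 248.5 in Ept9. It was the 1 gene of this list called in Ept2, beside 0.801% of all tested probe sets. With single arrays left out, this call was lost in 10 of 12 cases (limma, adjusted p = 0.0252 to 0.130). Of the 23 tested genes of Gs alpha, cyclic AMP and protein kinase A, 0 passed in any of these tests, and neither did any of 12 menin partners or of 19 other pituitary tumor genes. *Prkacb*, a catalytic subunit that *Prkar1a* restrains, lay between 4378 and 5133 in all lines.

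Of 11 lists of cell type markers, the summed signals of all Ept2 arrays lay above those of all Ept6 arrays in 5 (somatotroph, thyrotroph, gonadotroph, folliculostellate and stem cell, blood) and below them in 1 (corticotroph and melanotroph), and they overlapped in 5. The share of all tested probe sets that part these lines in this way was not worked out, so the counts show no shift of cell types. The sums are of linear signal, so that bright genes weigh most. *Cga* and *Gh1* made up most of the gonadotroph and somatotroph sums. *Pcsk2* (876 to 1145 in Ept2) made up most of the corticotroph and melanotroph sum (1171 to 1247 there). Of the genes of the 11 lists, 1 passed the test in a line, *Pcsk2* in Ept2, where 0.801% of all tested probe sets passed. The summed signal of 3 thyrotroph markers was 8032 to 9483 in Ept6 and 10800.5 to 22082 in Ept2, with 9531 to 13183 in Ept1 and 8532 to 10075 in Ept9. The highest sum in Ept2 held 1 array of *Tshb*, the thyrotropin beta subunit, at 18692, and *Trhr*, the receptor of thyrotropin-releasing hormone, averaged 2947 in Ept6, 3732 in Ept2, 3729 in Ept1 and 2737 in Ept9. The summed signal of 3 folliculostellate and stem cell markers was 834 to 946 in Ept6 and 1225 to 1768 in Ept2, with 1040.5 to 1187.5 in Ept1 and 873 to 1018.5 in Ept9. In the list of 5 corticotroph and melanotroph markers, *Pcsk2*, a prohormone convertase, was lower in Ept2 (876 to 1145, log2 difference -0.64, limma adjusted p = 0.0495), against 1488 to 1813 in Ept6. That call was lost in 11 of 12 cases with single arrays left out (limma, adjusted p = 0.0475 to 0.163). *Tbx19*, the other tested gene of that list, averaged 145 in Ept2 and lay between 68.5 and 204.7 there (log2 difference 0.13, adjusted p = 0.842). *Pcsk2* and *Bub1* are among the called genes of Ept2 on chromosome 3, at numbers 551 and 486. The part of these cells in the *Gnas* and *Men1* values was not tested.

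The genes whose signals ran most like those of the members over the 12 arrays were named by their Pearson correlation among 10615 genes, as a description. How high the best of so many correlations runs for any other gene was not worked out, so these values show no link. For *Men1* this was *Plagl1* (r = 0.90), a zinc finger gene that is also in the list of other pituitary tumor genes. It was *Col1a2* for *Cdkn1b* (r = 0.88), *Lhfpl2* for *Cdkn2c* (r = 0.91) and *Dnajb12* for *Prkar1a* (r = 0.91). It was *Rpl7a* for *Gnas* 1369897_s_at (r = 0.92), *Map3k9* for *Pttg1* (r = 0.88) and *Slc1a3* for *Rb1* (r = 0.92). *Gnas* 1387906_a_at was added after its values were seen and ran most like *Tceal5* (r = 0.94), followed by *Col24a1* (r = 0.92) and *Fubp3* (r = 0.88). The probe set of *Fubp3* in question, 1382390_at, was higher in Ept6 by 0.83 (limma adjusted p = 0.0464), while its other probe set, 1393006_at, was lower there, with a log2 difference of -2.42 (limma adjusted p = 9.98e-07). The call on 1382390_at was lost in 10 of 12 cases with single arrays left out (adjusted p = 0.0310 to 0.217), and that on 1393006_at in 0 of 12.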

How the data were processed

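Anterior pituitary RNA of 12 samples in 4 lines was hybridised to 1-colour expression arrays. The deposited intensity values are linear and were scaled by the authors to a common trimmed mean (500.18 to 500.193 with 2% trimmed from either end). How background was corrected, and with which software, is not given in the sources used here. The values were taken to log2(signal + 16), unscaled. Of 31099 probe sets, 57 controls and 12435 dim ones (below the 40th percentile of the mean, or 65.2 in signal) did not enter the tests, and 18607 did. Differences are on this scale and understate those of dim probe sets.

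limma 3.58.1 in R 4.3.3 gave the F test among the lines, each line against the other 3 and the 6 pairs, adjusted by Benjamini-Hochberg over all tested probe sets within each comparison, at a threshold of 0.05. The number of arrays limits the precision. Correlations used 100000 permutations, two-sided, adjusted over all 5139 same-gene pairs and not over the 9 pairs as first planned. The models were tested on simulated data.

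By the platform annotation 20832 probe sets have 1 symbol, 436 have several and 9831 have no symbol. Order along chromosomes and promoter windows came from RefSeq (GRCr8). Named were all members, list genes past the threshold, and the genes most like each member. Of the last, the text gives the first, and for *Gnas* 1387906_a_at the first 3. Members and lists were chosen with earlier results of these data known. Alternatives were a pseudocount of 1 or 64, median centring, quantile normalization, filters at the 60th percentile or absent, a replicate block, limma with trend, array weights, and leaving out each array. The limma test on differences between probe sets was added after the data were seen.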

Additional observations from a re-analysis of the deposited data

How the results depend on the processing

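Called members appeared under 3 alternatives. With trend, 2 of the 14 probe sets passed the F test (adjusted p = 0.0260 and 0.0312), 2 passed for Ept6 against the other 3 lines, 2 for Ept2 against Ept6 and 1 for Ept6 against Ept9. Of all 18607 tested probe sets, trend called 419, 105, 455 and 94 in the same order, against 185, 30, 122 and 23 without it. For Ept2 against Ept6, 2 members passed when the filter was set at the 60th percentile, where 297 of all tested probe sets passed. After quantile normalization 1 member passed. All of these members were probe sets of *Gnas*. The member counts stayed at 0 with each array left out in turn, under the replicate block and in the other comparisons. No pair of probe sets of the members was called under any alternative. For the line patterns this says nothing of stability, since the exact test cannot call a lone pair. The correlation test can call pairs, and 1.19% of all pairs passed it with a positive correlation in the main setting.

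Counts over all tested probe sets moved more. The F test called 185, against 419 with trend, 282 with the stricter filter, 84 with the replicate block and 53 with no filter. Ept1 against the other 3 called 36, against 73 with trend, 16 with the block and 18 with no filter. Ept2 called 149, against 340 with trend, 225 with the stricter filter, 98 with array weights, 50 with the block and 32 with no filter. Ept6 called 30, against 105, 58 and 14 with trend, stricter filter and block, 9 with no filter and 16 with a pseudocount of 1. Ept9 called 127, against 217 with trend, 40 with the block and 29 with no filter. Leaving out each array gave 73 to 142 for the F test, 12 to 33 for Ept1, 27 to 107 for Ept2, 11 to 30 for Ept6 and 28 to 98 for Ept9.

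Same-numbered arrays of different lines did not deviate together (correlations -0.14 to 0.08, median 0.02, n = 18). Pairs with different numbers gave -0.10 to 0.11 (median -0.01, n = 36), and 4 of 12 arrays correlated best with their own number. These values show no sign of a block, but they cannot tell how the arrays were run. The direction turned in 3 small differences. *Gnas* 1369897_s_at in Ept2 was 0.0885, and -0.0403 after quantile normalization. *Prkar1a* 1373951_at in Ept1 was 0.0409, and ran from -0.0101 (without Ept1 replicate 2) to 0.0682 with single arrays left out. *Rb1* in Ept2 was 0.141, and ran from -0.0684 (without Ept2 replicate 1) to 0.257. The cause of these changes was not tested. With 3 arrays per line, differences of the sizes seen here can be missed, most of all in the dim probe sets of *Cdkn1b* and *Cdkn2c*.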
